A study of Mus musculus with 4 samples.

Results

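The genes described here act in mitosis, the division of a cell's duplicated chromosomes between its daughters. They are 52 genes chosen by symbol from the literature of mitotic kinases, checkpoint and spindle proteins, the kinetochore, condensin, anaphase and cytokinesis. They and the other gene lists below were chosen with earlier results of these data known. All 52 were found in the deposited table of 34745 genes and passed the filter on low counts. The Gene Ontology terms in that table give cell division for 44 of them, mitotic nuclear division for 41, spindle for 25 and kinetochore for 17. RNA was sequenced from mouse Th17 cultures, which are CD4+ T cells steered to make interleukin 17. Setd2-CD4 cre mice gave 2 libraries (replicates 22 and 24) and wild-type (WT) mice gave 2 (replicates 13 and 15), all C57BL/6, from naive CD4+ T cells of the spleen held 3 days in Th17 conditions. Setd2 encodes a histone H3 lysine methyltransferase, and Cre driven by Cd4 sequences acts in T lineage cells, CD8 T cells included. The labels give no age, do not describe the Setd2 allele and are silent on whether each library had its own animal or culture, so a p-value here reflects the variation between libraries, some or all of which may be technical. Gene positions are those of the deposited table, on GRCm38. Levels are counts scaled to a common library size (CPM) after TMM scaling. Values pair libraries in the order 22 and 24 for Setd2-CD4 cre and 13 and 15 for WT throughout.

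Entry into mitosis is driven by Cdk1 bound to cyclin B, which the Cdc25 phosphatases activate and the Aurora and Polo-like kinases reinforce. Condensin compacts the chromosomes, kinetochores tie their centromeres to the spindle, and the spindle checkpoint holds back the anaphase-promoting complex (APC/C) until every chromosome is attached. The APC/C, an E3 ubiquitin ligase, then destroys securin and cyclin B, separase cuts cohesin, and a central spindle and contractile ring part the daughters. T cells divide rapidly in the days after activation, and transcripts of these genes mark dividing cells, since many peak in G2 and M phase. In bulk samples, fewer cells in division and less RNA of a gene per cell cannot be told apart.

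Libraries held 11007343 to 12518415 counts, and the 52 genes had 184 counts or more in every library. Setd2 itself stood at 144 and 153 CPM in Setd2-CD4 cre and 184 and 176 CPM in WT, and the difference did not pass (log2 fold change -0.28, SE 0.10, edgeR adjusted p = 0.0748). The Setd2 log2 fold change passed in 5 of the 14 alternatives: upper-quartile factors (log2 fold change -0.39, edgeR adjusted p = 0.0242), library totals (log2 fold change -0.43, edgeR adjusted p = 0.0216), both limma-trend fits on FPKM (limma adjusted p = 0.0439 and 0.0442) and the edgeR fit without Setd2-CD4 cre 24 (adjusted p = 0.0105). Its sign was negative in all 14. These are sums over the whole gene and do not test whether exons were removed. The 7 T cell markers summed to 3253 and 3404 CPM in Setd2-CD4 cre and 3658 and 3509 CPM in WT. All 7 had counts in every library, 1 rose and 4 fell. Il17a, the cytokine that defines Th17 cells, stood at 570.2 and 587 CPM in Setd2-CD4 cre and 163 and 202 CPM in WT (log2 fold change 1.67, SE 0.13, edgeR adjusted p = 0.000695). It was present in all 4 libraries. Of the other Th17 markers reported, Il23r, Rora and Ahr rose and Ccr6 did not pass. Il17f, a related cytokine, stood at 117 and 196 CPM in Setd2-CD4 cre and 152 and 187 CPM in WT and overlapped between genotypes (log2 fold change -0.12, edgeR adjusted p = 0.763). Of 8 B cell markers 7 rose, none fell and none was at 0 in any library, and they summed to 266 and 135 CPM in Setd2-CD4 cre and 38.8 and 33.6 CPM in WT. Of 4 plasma cell markers 1 rose, with sums of 55.6 and 50.6 CPM against 29.6 and 27.5 CPM. Sums were 191 and 103 CPM against 79.3 and 94.7 CPM for 6 CD8 T and NK markers, of which 1 rose, and 33.5 and 37.8 CPM against 22.1 and 19.01 CPM for 5 dendritic cell markers, of which 1 rose. They were 2.34 and 7.78 CPM against 8.30 and 8.75 CPM for 5 myeloid markers. Ncr1, Adgre1, Xcr1 and Clec9a were at 0 in at least 1 library. The part of other cell types in the results that follow was not tested.

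The mitosis genes did not move in 1 direction between the genotypes. In Setd2-CD4 cre cultures 10 of the 52 rose, 7 fell and 35 did not pass edgeR's quasi-likelihood test at a Benjamini-Hochberg adjusted p of 0.05 over the 12927 genes tested. That is 32.7% of the list, against 30.7% of all genes tested (16.2% higher and 14.5% lower), so the share called was near the background. The genes that rose were Anln, Cdc25c, Cenpa, Ube2c, Smc4, Ube2s, Kif23, Kif11, Ect2 and Cdc20. Those that fell were Spc24, Birc5, Spc25, Espl1, Nuf2, Mki67 and Smc2. The libraries of the genotypes did not overlap for 35 of the 52 (67.3%), 17 higher and 18 lower, against 70.7% of all genes tested (34.6% higher and 36.1% lower). The median log2 fold change was -0.00 for the 52 genes and -0.01 for all genes. No member changed as much as 2-fold, which 1866 of the 12927 tested genes did. The median size of the change was 0.25 on the log2 scale for the members and 0.39 for all genes. These comparisons of size were not matched for level. The lowest level in any library was 17.9 CPM for the members and 0 CPM for all genes tested.

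The balance of rises and falls depended on the scaling. Upper-quartile factors gave 5 members higher and 11 lower, against 1565 and 2617 of the 12927 genes tested. Library totals gave 3 higher and 13 lower, against 1409 and 2879 of all genes. The balance over all genes thus moved the same way. Under these scalings the median log2 fold change of all genes moved to -0.12 and -0.16. None of the 17 called members changed sign under the 14 alternatives tried. Anln, Ube2c and Smc4 rose, and all 7 members that fell did so, under each of these scalings. On log2(FPKM + 1), limma-trend gave 3 higher and 11 lower, against 1267 and 2746 of all genes. Both that fit and library totals lost the calls of Cdc25c, Ube2s, Cdc20, Cenpa, Kif11, Kif23 and Ect2. Without WT 13, 12 of the 17 calls were lost, and without WT 15, 15 were lost, leaving Birc5 and Spc24. Without Setd2-CD4 cre 22 or 24 none of the 17 called members changed sign. The median log2 fold change of all genes was -0.02 in both fits. Each such fit rests on a lone library of 1 genotype, which is assumed to vary like the pair of the other.

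**Figure D1:**
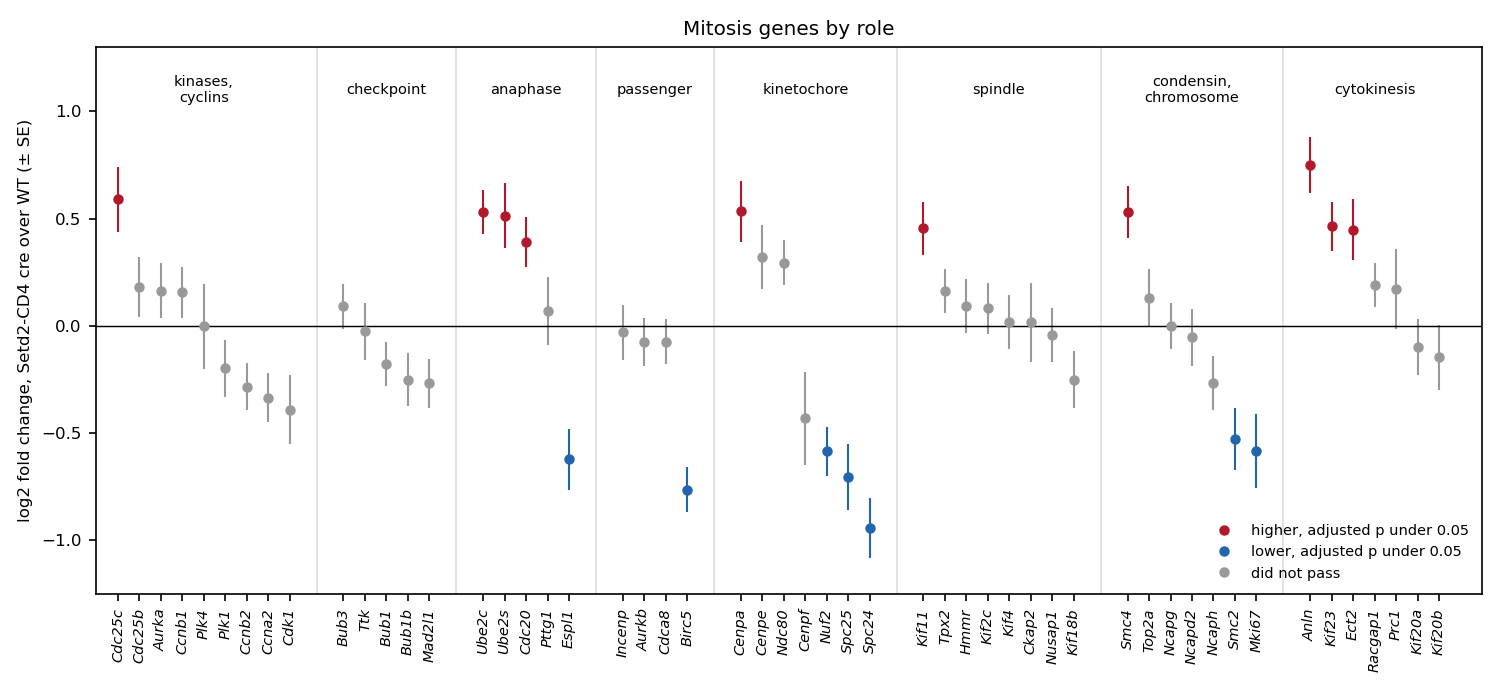
The log2 fold change of each of the 52 genes, Setd2-CD4 cre over WT, with bars of ± 1 SE, grouped by role and coloured by the edgeR call. Rises and falls both occur in 3 of the 8 roles, and values run from 0.75 for Anln to -0.95 for Spc24.

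Most of the promoters at hand shared an element. The cell cycle genes homology region (CHR) is a short element, TTTGAA or TTTAAA, through which complexes built on the MuvB core act on genes of G2 and M phase. It is often found near CCAAT boxes, which the factor NF-Y binds. RefSeq promoters on GRCm38.p6, from 250 bases before to 50 bases after the start site, were at hand for 44 of the 52 genes as 47 windows, and none for Tpx2, Spc24, Smc4, Aurkb, Kif20a, Cdc25c, Ccna2 and Incenp. Both strands were searched, and matches of different motifs may overlap. A CHR match lay in 39 of the 47 windows (83.0%), against 27.6% of all 32851 windows of this length and 25.7% of 35 windows of S phase genes. Within 50 bases of the start site it lay in 32 of 47 (68.1%), against 8.28% of all windows, namely in 8 of 9 for members that rose, 3 of 6 for those that fell and 21 of 32 for those that did not pass. CCAAT lay in 35 of 47 (74.5%), against 37.4% of all windows and 60.0% of those of S phase genes. CHR matches lay in 8 of 9 windows of members that rose, 5 of 6 of members that fell and 26 of 32 of members that did not pass. These are matches of letters, not measured binding.

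The promoters of a pair of members that rose and a pair that fell show where matches lie and where they are missing. They belong to the largest changes that have a window, with CHR and CCAAT matches on either strand in capitals (TTCAAA and ATTGG are the reverse forms) and the strand of the gene running 5′ to 3′. Anln (chr9:22389157-22389456, minus strand) and Cenpa (chr5:30666636-30666935, plus strand) rose. Birc5 (chr11:117848987-117849286, plus strand) and Spc25 (chr2:69206164-69206463, minus strand) fell.
Anln: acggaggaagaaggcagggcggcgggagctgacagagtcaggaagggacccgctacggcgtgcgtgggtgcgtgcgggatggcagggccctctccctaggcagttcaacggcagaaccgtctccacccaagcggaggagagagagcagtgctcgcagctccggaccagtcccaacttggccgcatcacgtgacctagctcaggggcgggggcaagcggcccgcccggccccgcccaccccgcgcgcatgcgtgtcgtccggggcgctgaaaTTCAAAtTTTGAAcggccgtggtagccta
Cenpa: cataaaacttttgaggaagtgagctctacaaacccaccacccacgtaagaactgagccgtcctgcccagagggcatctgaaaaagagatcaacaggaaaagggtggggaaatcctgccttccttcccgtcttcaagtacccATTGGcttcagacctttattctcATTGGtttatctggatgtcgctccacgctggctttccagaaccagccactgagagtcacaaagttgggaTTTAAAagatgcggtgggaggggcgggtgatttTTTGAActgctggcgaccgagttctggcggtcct
Birc5: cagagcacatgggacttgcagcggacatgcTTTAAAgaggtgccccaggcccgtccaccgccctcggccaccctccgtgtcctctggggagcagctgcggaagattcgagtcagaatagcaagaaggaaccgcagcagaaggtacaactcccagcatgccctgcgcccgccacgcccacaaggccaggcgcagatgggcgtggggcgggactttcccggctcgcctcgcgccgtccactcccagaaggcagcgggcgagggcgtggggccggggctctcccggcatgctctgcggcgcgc
Spc25: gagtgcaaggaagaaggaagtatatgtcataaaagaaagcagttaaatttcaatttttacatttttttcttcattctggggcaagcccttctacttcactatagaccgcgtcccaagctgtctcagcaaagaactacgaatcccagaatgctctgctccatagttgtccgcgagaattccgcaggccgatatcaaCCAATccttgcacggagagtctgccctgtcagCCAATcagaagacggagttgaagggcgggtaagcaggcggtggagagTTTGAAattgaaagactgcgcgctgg
Anln holds CHR matches 22 and 29 bases after the start site and no CCAAT. Cenpa holds 1 CHR match on each side of the start site, each 17 bases from it, and a pair of CCAAT boxes upstream. Birc5 holds a single CHR match, 220 bases upstream, and no CCAAT. Spc25 has one 25 bases downstream of its start with CCAAT boxes 23 and 55 bases upstream.

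**Figure D2:**
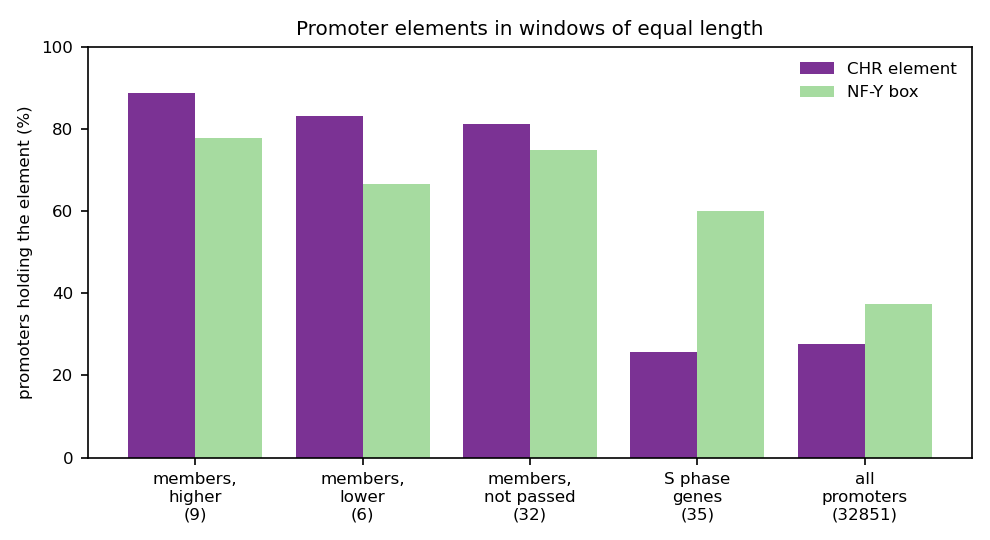
The share of 300-base promoter windows that hold a CHR or a CCAAT match, with the number of windows in parentheses. CHR matches lie in 88.9%, 83.3% and 81.2% of windows of members that rose, fell or did not pass, against 25.7% for S phase genes and 27.6% for all promoters.

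Among 9 kinases, cyclins and phosphatases grouped together, 1 rose and none fell (11.1% called, against 30.7% of all genes). Cdc25c (ENSMUSG00000044201), a phosphatase that activates Cdk1, stood at 76.1 and 95.2 CPM in Setd2-CD4 cre and 61.9 and 51.9 CPM in WT, a 1.5-fold rise (log2 fold change 0.59, SE 0.15, edgeR adjusted p = 0.0227). Both Setd2-CD4 cre libraries lay above both WT libraries. Its relative Cdc25b stood at 302 and 383 CPM in Setd2-CD4 cre and 321 and 285 CPM in WT and the genotypes overlapped (edgeR adjusted p = 0.354). Cdk1 (ENSMUSG00000019942, chromosome 10, 69336635 to 69352938), the kinase at the centre of mitosis, stood at 65.7 and 90.1 CPM in Setd2-CD4 cre and 97.3 and 107 CPM in WT (log2 fold change -0.39, SE 0.16, edgeR adjusted p = 0.101). Its Setd2-CD4 cre libraries were the lower, and replicate 22 was the lowest of all. Ccna2, cyclin A2, which serves S phase and entry into mitosis, stood at 289 and 318 CPM in Setd2-CD4 cre and 360.5 and 405 CPM in WT (log2 fold change -0.34, SE 0.12, edgeR adjusted p = 0.0599). Ccnb1, the main mitotic cyclin, stood at 88.4 and 97.1 CPM in Setd2-CD4 cre and 87.8 and 78.7 CPM in WT (log2 fold change 0.16, SE 0.12, edgeR adjusted p = 0.347), with replicate 22 just above WT 13. Plk1, the Polo-like kinase that acts from entry to cytokinesis, stood at 81.2 and 102 CPM in Setd2-CD4 cre and 105 and 105 CPM in WT (log2 fold change -0.20, SE 0.13, edgeR adjusted p = 0.283), with both Setd2-CD4 cre libraries below WT. Ccnb2, Aurka and Plk4 had log2 fold changes of -0.28, 0.16 and -0.00. The call of Cdc25c was lost with library totals and without WT 15.

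None of the 5 spindle checkpoint genes passed, against 30.7% of all genes, and their log2 fold changes lay between -0.27 (Mad2l1) and 0.09 (Bub3). Bub1b, which encodes BubR1, a part of the complex that inhibits the APC/C, stood at 217 and 264 CPM in Setd2-CD4 cre and 294 and 278 CPM in WT (log2 fold change -0.25, SE 0.12, edgeR adjusted p = 0.153). WT libraries were the higher, without overlap. Mad2l1, which encodes the Mad2 protein of that complex, and Bub1, a checkpoint kinase gene, also lay lower in every Setd2-CD4 cre library than in any WT library, at -0.27 and -0.18. Bub3 lay the other way, at 149 and 162 CPM in Setd2-CD4 cre and 146 and 146 CPM in WT. So 4 of the 5 did not overlap, 1 higher and 3 lower (80%, against 70.7% of all genes tested, 34.6% higher and 36.1% lower). Ttk, which encodes the kinase Mps1 that starts the signal, overlapped between genotypes (-0.03).

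Of 5 genes that carry out anaphase 3 rose and 1 fell (60% and 20%, against 16.2% and 14.5% of all genes). The 3 that feed the APC/C with ubiquitin or activate it rose, and separase fell. Ube2c (ENSMUSG00000001403, chromosome 2, 164769898 to 164778822), the E2 enzyme that begins ubiquitin chains on APC/C targets, stood at 349 and 339.8 CPM in Setd2-CD4 cre and 242 and 235 CPM in WT, 1.44-fold higher (log2 fold change 0.53, SE 0.10, edgeR adjusted p = 0.00822). Ube2s, the E2 enzyme that lengthens those chains, stood at 47.1 and 54.6 CPM in Setd2-CD4 cre and 38.8 and 32.4 CPM in WT (log2 fold change 0.51, SE 0.15, edgeR adjusted p = 0.035). Cdc20, the activator that brings targets to the APC/C before anaphase, stood at 242 and 281 CPM in Setd2-CD4 cre and 207 and 192 CPM in WT (log2 fold change 0.39, SE 0.12, edgeR adjusted p = 0.0384). For these 3 genes each Setd2-CD4 cre library exceeded each WT library. Espl1 (ENSMUSG00000058290, chromosome 15, 102296293 to 102324356), which encodes separase, the protease that opens cohesin, stood at 103 and 136 CPM in Setd2-CD4 cre and 186 and 183 CPM in WT, 1.54-fold lower (log2 fold change -0.62, SE 0.14, edgeR adjusted p = 0.0148). Its WT libraries were nearly equal, whereas its Setd2-CD4 cre libraries lay apart from each other and below them. Pttg1, securin, which restrains separase, stood at 58.0 and 43.8 CPM in Setd2-CD4 cre and 50.3 and 46.8 CPM in WT (log2 fold change 0.07, SE 0.16, edgeR adjusted p = 0.772). Its genotypes overlapped. The calls of Cdc20 and Ube2s were lost under upper-quartile factors and library totals, and all 4 calls were lost without WT 13 and without WT 15. In GENCODE M21, 22.8% of the exon bases of Ube2c also lie in exons of Tnnc2 on the opposite strand, and strand use in counting is not given in the sources used here, so its value is uncertain. The same holds for 12.7% of Cdc25c (Gm3550), 3.56% of Ube2s (Rpl28) and 2.84% of Cdc20 (Elovl1).

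Birc5 stood alone among the genes of the chromosomal passenger complex, which corrects faulty attachments and guides cytokinesis. Birc5 (ENSMUSG00000017716, chromosome 11, 117849251 to 117855743), which encodes survivin, the subunit that targets the complex to centromeres, stood at 106 and 115 CPM in Setd2-CD4 cre and 185 and 190.2 CPM in WT. Its means were 110.4 ± 6.29 CPM in Setd2-CD4 cre and 188 ± 3.69 CPM in WT (SD, n = 2 each), a 1.7-fold fall (log2 fold change -0.76, SE 0.11, edgeR adjusted p = 0.00255). The fall was kept in all 14 alternative settings. Aurkb, the kinase of the complex, stood at 100.04 and 112 CPM in Setd2-CD4 cre and 114 and 109 CPM in WT (log2 fold change -0.07, SE 0.11, edgeR adjusted p = 0.639). The partners Incenp and Cdca8 (borealin) were likewise near their WT values, at -0.03 and -0.07. The ratio of Aurkb to Birc5 counts does not depend on scaling between libraries, and the pair was chosen after the values were seen. This ratio was 0.944 and 0.971 in Setd2-CD4 cre and 0.616 and 0.573 in WT.

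At the kinetochore 1 of 7 genes rose, 3 fell and 3 did not pass, and no gene overlapped between genotypes. Of all genes tested 16.2% were higher, 14.5% lower and 70.7% without overlap, so a gene without overlap was common here. The Ndc80 complex, the main microtubule anchor, has 4 subunits, and the genes of 3 fell. Spc24 (ENSMUSG00000074476, chromosome 9, 21755442 to 21760286), at the end of the complex that faces the centromere, stood at 17.9 and 18.4 CPM in Setd2-CD4 cre and 35.7 and 34.3 CPM in WT, the largest change in the list at 1.93-fold lower (log2 fold change -0.95, SE 0.14, edgeR adjusted p = 0.00329). Its partner there, Spc25 (ENSMUSG00000005233, chromosome 2, 69193895 to 69206194), stood at 54.6 and 74.0 CPM in Setd2-CD4 cre and 104 and 106 CPM in WT (log2 fold change -0.71, SE 0.15, edgeR adjusted p = 0.0128). Nuf2, which pairs with Ndc80 at the microtubule end, stood at 62.1 and 67.7 CPM in Setd2-CD4 cre and 98.4 and 96.5 CPM in WT (log2 fold change -0.59, SE 0.11, edgeR adjusted p = 0.00828). In all 3 the WT libraries were close to each other and above both Setd2-CD4 cre libraries. Ndc80 itself stood at 131 and 141 CPM in Setd2-CD4 cre and 110.0 and 112 CPM in WT (log2 fold change 0.29, SE 0.11, edgeR adjusted p = 0.0676), lying higher in Setd2-CD4 cre without passing. Cenpa (ENSMUSG00000029177, chromosome 5, 30666777 to 30674830), the histone H3 variant that marks centromeres, stood at 435 and 564 CPM in Setd2-CD4 cre and 353 and 337 CPM in WT, 1.45-fold higher (log2 fold change 0.53, SE 0.14, edgeR adjusted p = 0.0259), with replicate 24 far above 22. Cenpe, a kinetochore motor gene, had a log2 fold change of 0.32, and Cenpf, a large protein of the outer kinetochore, -0.43. Cenpa lost its call under upper-quartile factors and library totals and without WT 13 or WT 15. Nuf2 lost its call without WT 13 or WT 15, Spc25 without WT 15, and Spc24 in none of the settings.

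Count ratios, all but the last between partners of 1 complex, were chosen after the values were seen. They are free of scaling and set these differences side by side. Ndc80 to Spc24 was 7.32 and 7.64 in Setd2-CD4 cre and 3.08 and 3.25 in WT. Ndc80 to Nuf2 was 2.11 and 2.08 against 1.12 and 1.16, and Ndc80 to Spc25 was 2.40 and 1.90 against 1.06 and 1.05. Smc4 to Smc2 was 5.90 and 3.99 against 2.38 and 2.24. Cdc20 to Espl1, chosen in the same way and not drawn, was 2.34 and 2.06 against 1.11 and 1.05. No ratio overlapped between the genotypes. In each pair the denominator had been called lower and the numerator had not, so the gap follows from the choice of pairs. It is no separate result. Several ratios also share Ndc80. The smallest p that exact two-sided permutation of 2 and 2 libraries allows is 0.333.

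**Figure D3:**
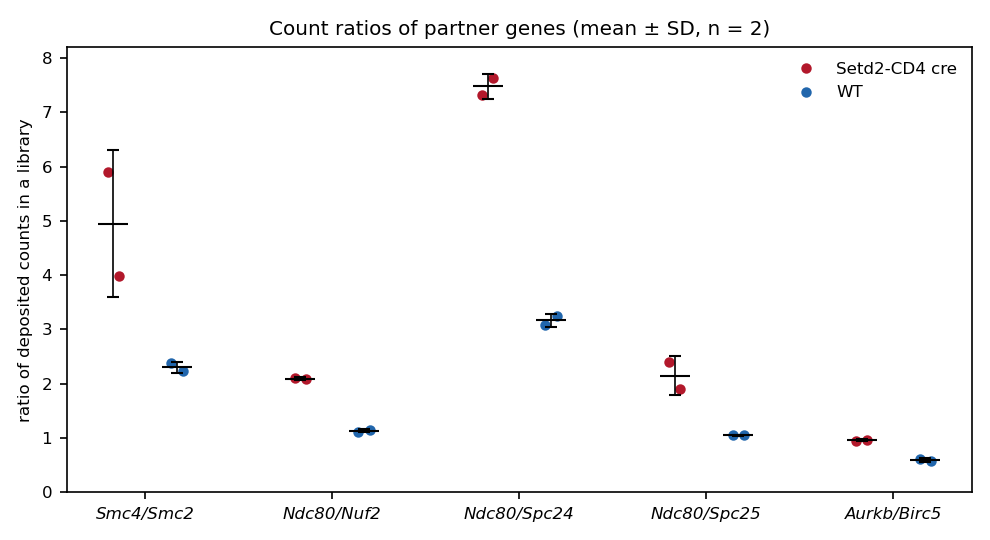
Ratios of deposited counts of partner genes in each library (points), with the mean and SD of the 2 libraries of each genotype. The pairs were chosen after the values were seen, so the higher Setd2-CD4 cre values for all 5 ratios follow from the choice. Means were 7.48 in Setd2-CD4 cre against 3.17 in WT for Ndc80 to Spc24.

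Condensin, the ring that compacts mitotic chromosomes, is built on the pair of ATPases Smc2 and Smc4, and their genes moved in opposite directions. Smc4 (ENSMUSG00000034349, chromosome 3, 69004738 to 69034623) stood at 1099 and 989 CPM in Setd2-CD4 cre and 744 and 701 CPM in WT, 1.44-fold higher (log2 fold change 0.53, SE 0.12, edgeR adjusted p = 0.0155). Smc2 (ENSMUSG00000028312, chromosome 4, 52439243 to 52488260) stood at 186 and 248 CPM in Setd2-CD4 cre and 313 and 314 CPM in WT, 1.44-fold lower (log2 fold change -0.53, SE 0.14, edgeR adjusted p = 0.0285). Replicate 22 was the more extreme in both, the highest for Smc4 and the lowest for Smc2. The non-ATPase subunits of condensin I did not pass, at -0.05 (Ncapd2), -0.00 (Ncapg) and -0.27 (Ncaph). Mki67 (ENSMUSG00000031004, chromosome 7, 135689788 to 135716379), which encodes the Ki-67 coat of mitotic chromosomes and is a common marker of dividing cells, stood at 796 and 1118 CPM in Setd2-CD4 cre and 1437 and 1429.5 CPM in WT, 1.5-fold lower (log2 fold change -0.58, SE 0.17, edgeR adjusted p = 0.0368). Top2a, the topoisomerase that untangles sister chromatids, stood at 1706 and 1914 CPM in Setd2-CD4 cre and 1641 and 1664 CPM in WT (log2 fold change 0.13, SE 0.13, edgeR adjusted p = 0.476). Its direction turned under library totals. Per unit of length Top2a had the highest mean level of the 52, at 160.0 ± 16.6 FPKM in Setd2-CD4 cre and 162 ± 2.72 FPKM in WT (SD, n = 2 each). The calls of Smc4, Smc2 and Mki67 did not survive the omission of either WT library.

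Of 8 genes of spindle motors and spindle assembly, 1 rose and none fell, against 16.2% higher and 14.5% lower among all genes. Kif11 (ENSMUSG00000012443, chromosome 19, 37376403 to 37421859), the motor Eg5 that pushes spindle poles apart, stood at 738 and 828 CPM in Setd2-CD4 cre and 599 and 546 CPM in WT, 1.37-fold higher (log2 fold change 0.45, SE 0.12, edgeR adjusted p = 0.0276), without overlap. Tpx2, which activates Aurora A on the spindle, had a log2 fold change of 0.16, and the microtubule-destabilising motor gene Kif2c 0.08. The chromosome motor gene Kif4 (0.02) and the spindle proteins Hmmr (0.09), Nusap1 (-0.04) and Ckap2 (0.02) overlapped between genotypes. Kif18b, a motor that shortens astral microtubules, lay lower without passing (-0.25). The call of Kif11 was lost under upper-quartile factors, library totals and without WT 13 or WT 15.

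Cytokinesis genes held 3 rises and no fall among 7, beside 16.2% higher and 14.5% lower among all genes. Anln (ENSMUSG00000036777, chromosome 9, 22331214 to 22389206), anillin, the scaffold of the contractile ring, stood at 253 and 303 CPM in Setd2-CD4 cre and 178 and 153 CPM in WT. Its means were 278 ± 35 CPM in Setd2-CD4 cre and 165 ± 17.9 CPM in WT (SD, n = 2 each), the largest rise in the list at 1.68-fold (log2 fold change 0.75, SE 0.13, edgeR adjusted p = 0.00592). Kif23 (ENSMUSG00000032254, chromosome 9, 61917280 to 61946799), a motor of the centralspindlin complex, stood at 251 and 272 CPM in Setd2-CD4 cre and 202 and 177 CPM in WT (log2 fold change 0.46, SE 0.11, edgeR adjusted p = 0.0193). Ect2, the exchange factor that switches on RhoA at the division plane, stood at 155 and 189 CPM in Setd2-CD4 cre and 139 and 114 CPM in WT (log2 fold change 0.45, SE 0.14, edgeR adjusted p = 0.0477). In all 3 genes replicate 24 was the highest library and WT 15 the lowest. Racgap1, the other centralspindlin subunit, did not overlap but did not pass (0.19), and Prc1, which bundles the central spindle, had 0.17. The motor genes Kif20a and Kif20b overlapped, at -0.10 and -0.15. Kif23 lost its call with library totals, Ect2 under that, upper-quartile factors, a stricter filter and no robust estimation, Kif23 and Ect2 without WT 13, and all 3 without WT 15.

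The Setd2-CD4 cre libraries differed from each other along the whole list. Replicate 24 exceeded replicate 22 for 47 of the 52 genes, with a median difference of 0.25 on the log2 scale. It did so for 6472 of all 12927 tested genes, with a median of 0.00. The difference was not particular to the 52. Replicate 24 was also the higher for 87 of 128 further mitosis genes (median 0.13) and 29 of 39 S phase genes (median 0.14). The 5 exceptions were Plk4, Pttg1, Bub1, Ube2c and Smc4. Summed over the list, levels were 12409 and 14465 CPM in Setd2-CD4 cre and 13326 and 12873 CPM in WT. Mean sums were 13437 ± 1454 CPM in Setd2-CD4 cre and 13099 ± 320.2 CPM in WT (SD, n = 2 each), so the genotypes overlapped and the difference was smaller than the spread in Setd2-CD4 cre. The list took 1.16% and 1.39% of counts in Setd2-CD4 cre and 1.40% and 1.36% in WT. The B cell markers ran the other way between those replicates, all 8 being higher in 22 than in 24. So did all 4 of the CD8 T and NK markers that were tested. Of the T cell markers 5 of 7 were higher in 24, as were all 3 myeloid markers tested. The part of this difference in the results was not tested.

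**Figure D4:**
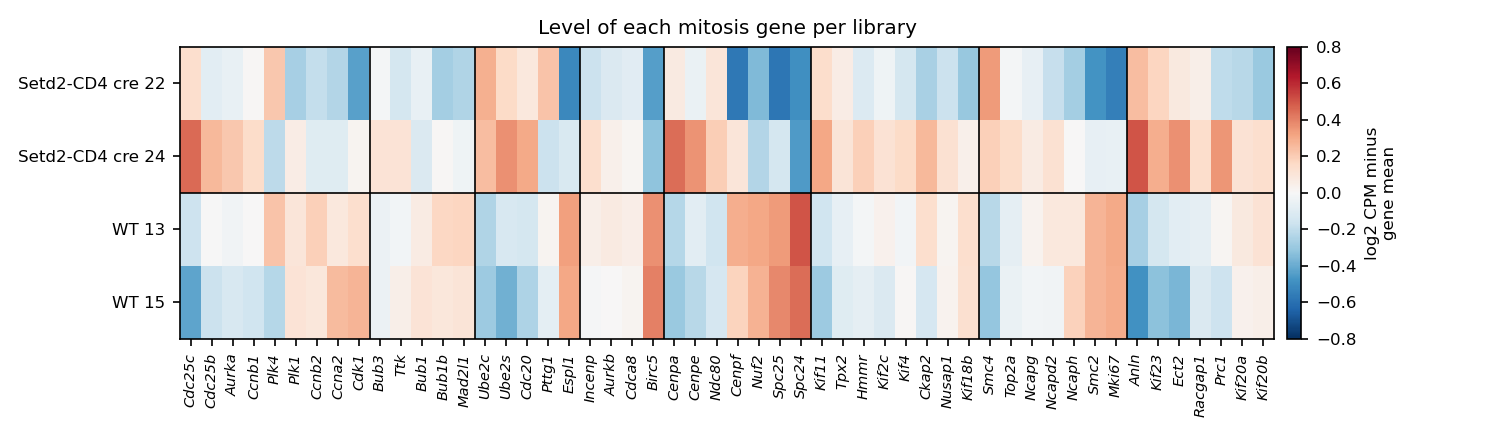
Level of each of the 52 genes in each library, as log2 CPM minus the gene's mean over the 4 libraries, with genes in the order of the roles above. Replicate 24 of Setd2-CD4 cre exceeds replicate 22 for 47 genes, and Spc24, Birc5, Nuf2 and Spc25 are below both WT libraries in both.

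A further list of 128 mitosis genes outside the 52 held 18 that rose and 34 that fell (40.6% called, against 30.7% of all genes). By direction, 14.1% were higher and 26.6% lower, against 16.2% and 14.5% of all genes. The median log2 fold change was -0.17. Like the 52, these genes were chosen with earlier results of these data known. Of 31 further kinetochore genes 12 fell (38.7%, against 14.5% of all genes) and 1 rose (3.23%, against 16.2%). The falls were led by Ska2 of the microtubule-tracking Ska complex (log2 fold change -1.20, edgeR adjusted p = 0.00419). Next came Oip5, which helps load Cenpa (log2 fold change -0.99, edgeR adjusted p = 0.00522), and Mis12, of the complex that receives Ndc80 (log2 fold change -1.05, edgeR adjusted p = 0.00715). Cenpl, a centromere subunit gene, rose (0.64), a call lost without WT 15.

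Of 19 regulators of the cell cycle, most of them transcriptional, 3 rose and 7 fell (15.8% and 36.8%, against 16.2% and 14.5% of all genes). Foxm1, which encodes an activator of G2 and M genes, stood at 107 and 119 CPM in Setd2-CD4 cre and 176 and 168 CPM in WT (log2 fold change -0.61, SE 0.11, edgeR adjusted p = 0.00658). Mybl2, B-Myb, which joins MuvB to activate them, stood at 27.3 and 29.9 CPM in Setd2-CD4 cre and 42.8 and 53.1 CPM in WT (log2 fold change -0.75, SE 0.16, edgeR adjusted p = 0.0108). Lin54, the MuvB subunit that contacts the CHR element, stood at 88.8 and 111 CPM in Setd2-CD4 cre and 44.4 and 57.5 CPM in WT (log2 fold change 0.97, SE 0.17, edgeR adjusted p = 0.00595), so it moved opposite to both. The other MuvB genes listed, Lin9, Lin37, Lin52 and Rbbp4, were not among the 3 that rose. E2f1, an activator of S phase genes, stood at 14.6 and 18.98 CPM in Setd2-CD4 cre and 29.9 and 30.8 CPM in WT (log2 fold change -0.85, SE 0.17, edgeR adjusted p = 0.00953). The repressors E2f8 (log2 fold change -1.69, edgeR adjusted p = 0.00138) and E2f7 (log2 fold change -1.65, edgeR adjusted p = 0.00225) fell the most, with Tfdp1, their family's dimer partner (-0.88), though E2f7 and E2f8 act without it. The pocket protein genes Rb1 (0.64) and Rbl2 (0.44) rose. Foxm1 lost its call without WT 13, Mybl2 and E2f1 without WT 15, and Rb1 and Rbl2 with either omitted. Rbl2 also lost its call under upper-quartile factors and library totals.

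Against 16.2% of all genes higher and 14.5% lower, the shares were 18.8% and 6.25% for the APC/C, and cohesin held 3 rises and 2 falls among 15 (33.3% called, against 30.7%). The shares were 24.1% and 20.7% for spindle and centrosome and 7.14% and 28.6% for mitotic entry. Of 16 APC/C genes 3 rose, Cdc27 (log2 fold change 0.85, edgeR adjusted p = 0.00157), Anapc16 (0.85) and Anapc1 (0.55), and Anapc11, the RING subunit, fell (-0.72). Of 15 cohesin genes 3 rose, the loader Nipbl (log2 fold change 1.05, edgeR adjusted p = 0.00135) and the cohesin subunits Stag2 (0.76) and Smc3 (0.68). The acetyltransferase gene Esco2 (-0.54) and Sgo1, the protector of centromeric cohesin listed as Sgol1 (-0.60), fell. Of 29 spindle and centrosome genes 7 rose, with the kinesin genes Kif2a (0.84) and Kifc1 (0.63) and the spindle gene Spag5 (0.48) at the smallest p. In the same group 6 fell, with the kinesin genes Kif15 (-0.75) and Kif22 (-0.48) and Sass6 of centriole assembly (-0.56). Of 4 condensin genes 2 fell (50%, against 14.5% of all genes), both of condensin II (Ncapd3, -0.49, and Ncaph2, -0.34). Of 14 genes of mitotic entry 4 fell, among them the mitotic kinase Pbk (log2 fold change -1.23, edgeR adjusted p = 0.00143), the Cdk1 inhibitor Pkmyt1 (-0.87) and cyclin F, Ccnf (-0.69), and the phosphatase subunit Ppp2r2d rose (0.46). Of 37 genes named outside the 52, omitting WT 13 ended 14 of the calls and omitting WT 15 ended 17.

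S phase, in which DNA is copied, precedes mitosis in the cycle, and its genes mostly lay lower in Setd2-CD4 cre. Of 39 tested, 24 fell and none rose (61.5% called, all lower, against 30.7% of all genes called and 14.5% lower). The median log2 fold change was -0.62 against -0.00 for the mitotic 52. Pcna, the sliding clamp of DNA synthesis (-1.04), and the nucleotide synthesis genes Tk1 (-1.15) and Rrm2 (-1.30) had the smallest p. The S phase list summed to 2614 and 2883 CPM in Setd2-CD4 cre and 3959.6 and 4192 CPM in WT. The summed mitotic level divided by the summed S phase level, which needs no scaling, was 4.75 and 5.02 in Setd2-CD4 cre and 3.37 and 3.07 in WT, without overlap. Without WT 15 the S phase count was 10. The S phase list was also chosen with earlier results of these data known, and a difference between the lists was not tested.

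**Figure D5:**
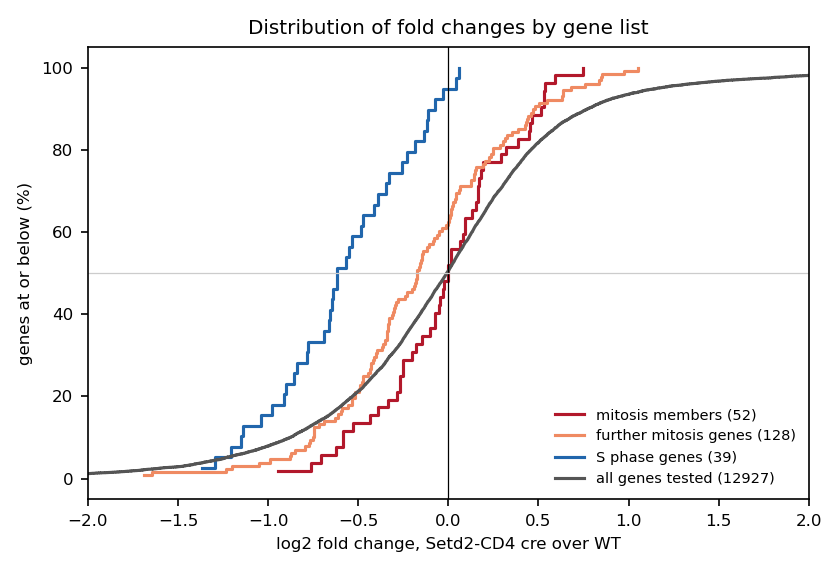
Cumulative distributions of the log2 fold change, Setd2-CD4 cre over WT, for the 52 mitosis genes, 128 further mitosis genes, 39 S phase genes and all 12927 genes tested. The mitosis list is centred at -0.00 and narrower than all genes, the further list is centred at -0.17 and the S phase list at -0.62. The lists were not matched for level.

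The counted length recovered from the deposited FPKM had a median of 5120 bases for the 10 that rose, 6004 for the 7 that fell and 5828 for the 35 that did not pass. The span of the gene on the chromosome had medians of 24.0, 26.6 and 23.0 kb in the same order.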

How the data were processed

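RNA-seq of 4 Th17 culture libraries was used. Bowtie2 and RSEM, with GRCm38.p6 and mm10, are named in the submitters' processing notes, with no versions or roles; whether counts were rounded is not given in the sources used here. The deposited counts per gene are whole numbers made by the authors, and the deposited FPKM values differed from count divided by length and total by at most 0.0554%, which gave the counted lengths. Library totals were 11007343 and 11322621 for Setd2-CD4 cre and 12518415 and 12414098 for WT, so 3 counts, the limit a count of 0 allows, correspond to 0.240 to 0.273 CPM. Such limits cover counting error only. The libraries of a genotype differed by more than counting noise (chi-square per degree of freedom 18.6 in Setd2-CD4 cre and 8.77 in WT), so none was treated as a second deposit of another; this does not show that they are independent samples. One WT library carries a cell type label that gives another replicate number than its title, and the title was followed.

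Counts of all genes that passed edgeR's expression filter were fitted by genotype, with TMM factors and robust quasi-likelihood tests, and p-values were adjusted by Benjamini-Hochberg over 12927 genes (threshold 0.05). R 4.3.3, edgeR 4.0.16, limma 3.58.1 and DESeq2 1.42.0 were used, and the fit was tested on simulated data. Alternatives were other scaling factors, filters, DESeq2, limma-voom, limma-trend on log2(FPKM + 1) or log2(FPKM + 0.1), and leaving out each library. The members and gene lists were chosen with earlier results of these data known. Every member past the threshold was named, 12 central members were given whatever their p, and up to 3 further genes in each direction and role by smallest p, with Foxm1, Mybl2, Lin54 and E2f1 always and 3 S phase genes. Sequences and windows are from RefSeq on GRCm38.p6. Itgam, whose symbol is repeated in the table, was left out of the myeloid markers. The allele's own exons were not analysed here. Some marker genes and the sums that hold them are not reported here.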

Additional observations from a re-analysis of the deposited data

How the results depend on the processing

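No paired analysis was possible because the genotypes share no replicate number. The calls depended on the scaling and on which libraries were kept, and the cause was not tested. A fit without a WT library takes its spread from the Setd2-CD4 cre pair alone. The chi-square per degree of freedom was 18.6 in that pair and 8.77 in the WT pair. With TMM factors 2094 genes rose and 1880 genes fell, 2879 were lower with library totals, and 1267 and 1269 were higher by limma-trend on log2(FPKM + 1) and log2(FPKM + 0.1). Leaving out a library in turn gave 718 to 3068 higher and 564 to 2903 lower. For the 52 genes, 10 higher became 5 with upper-quartile factors and 3 with library totals and on either FPKM scale, and 7 lower became 11, 13, 11 and 11 in the same order; leaving out a library gave 0 to 18 higher and 2 to 18 lower. For the further list, 18 higher became 10 on either FPKM scale and 7 to 25 without a library, and 34 lower became 11 to 51. The 24 S phase falls became 10 to 27. The median log2 fold change of mitosis members was -0.15 with library totals and -0.15 on both FPKM scales, and -0.13 to 0.10 without a library. The median log2 fold change of further mitosis genes was -0.29 with upper-quartile factors, -0.33 with library totals, and -0.30 and -0.32 on the FPKM scales. The median log2 fold change of S phase genes was -0.73, -0.77 and -0.74 with upper-quartile factors, library totals and log2(FPKM + 0.1), and -0.67 to -0.51 without a library. The summed level of the mitosis members in CPM, log2 Setd2-CD4 cre over WT, was 0.04 with TMM factors, -0.11 with library totals and -0.0753 to 0.15 without a library. Directions turned only for genes that had not passed among those named. The Pttg1 log2 fold change was -0.0445 with upper-quartile factors, -0.0873 with library totals, -0.0880 and -0.0964 on the FPKM scales and -0.14 to 0.26 without a library. The Aurkb log2 fold change ran between -0.15 and 0.00920 with a library left out; it was positive without replicate 22. The Top2a log2 fold change was -0.0191 with library totals and -0.0227 and -0.0229 on the FPKM scales. DESeq2, limma-voom and DESeq2 size factors kept all 17 member calls.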
